A study of Homo sapiens with 6 samples.

Results

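Cells meet shortage and protein damage with linked transcription programmes, and 40 genes of 2 such programmes are described here in DLD1 cells given the peptide SAH-BCL9B. The list was fixed by gene name, with earlier results of these data already known, so counts over it are descriptions. Its first 19 genes, from ATF4 to ATF5, form the ATF4 arm of the integrated stress response, and the other 21 form the arm of the endoplasmic reticulum (ER), with its chaperones, degradation factors and sensors. Where several probe sets named a gene alone, the brightest of them (highest mean level) stood for it. In this way 38 of the 40 genes were measured, 18 of the ATF4 arm and 20 of the ER arm, out of 19775 genes in all. GPT2, an alanine aminotransferase gene, and SYVN1, which encodes the ubiquitin ligase of ER-associated degradation, had no probe set of that kind and were not analysed here.

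DLD1 is an established human colorectal adenocarcinoma line, and SAH-BCL9B is a stapled peptide modelled on the helix of BCL9 that binds beta-catenin. Total RNA was taken after 12 h from 3 cultures with 10 µM SAH-BCL9B and from 3 with vehicle, which the labels give as DMSO, and hybridised to Affymetrix U133 Plus 2.0 arrays. The cells carried no other labelled treatment or allele, all cultures came from 1 line, and the arrays held no control peptide. The labels name separate cultures for each group but not separate passages or days, so p-values measure the spread between these 3 and 3 samples, which may be partly technical. All levels below are log2 expression values as the authors deposited them, so a difference of 1 is a 2-fold change, and changes are SAH-BCL9B minus vehicle.

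In the integrated stress response, kinases that sense amino acid shortage, ER stress, viral RNA or haem lack phosphorylate the translation factor eIF2. General translation falls while the mRNA of ATF4 is translated better, and ATF4 then activates genes of amino acid uptake and synthesis, its own partners, and feedback inhibitors. In the unfolded protein response, the ER sensors IRE1 (gene ERN1), PERK (EIF2AK3) and ATF6 respond to misfolded protein: PERK feeds into eIF2 and ATF4, IRE1 splices the mRNA of XBP1, and XBP1 and cleaved ATF6 activate chaperone and degradation genes. Since ATF4 is set largely by translation, XBP1 by splicing and the sensors by phosphorylation or cleavage, arrays see only the transcript part of each step.

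The promoters of the list hold different response elements, and the sequences are shown because these elements are the known binding sites through which ATF4, or ATF6 and XBP1, act. Windows of 300 bases, from 250 before to 50 after an annotated start (RefSeq, GRCh38.p14), were found for 37 of the 40 genes, 17 of the ATF4 arm and 20 of the ER arm. For each gene the first window listed was used, and any other start was not searched. The shares over all windows below take every listed window of that length, without that choice. NUPR1, GPT2 and PDIA3 had none in the table. Both strands were searched for the C/EBP-ATF response element (CARE, TGATGNAA) and for the ER stress response element (ERSE, CCAAT, then 9 bases of any kind, then CCACG). The second ER stress response element (ERSE-II, ATTGG, 1 base of any kind, CCACG) and the core of the unfolded protein response element (UPRE, TGACGTGG) were searched too. CARE was in 3 of the 17 ATF4-arm windows (17.6%) and 1 of the 20 ER-arm windows (5%), against 3.62% of 35116 windows of the same length. ERSE was in 6 of the 20 ER-arm windows (30%) and in 0 of the 17 of the ATF4 arm, against 0.0769% of all windows. ERSE-II was in 3 ER-arm windows (15%), against 0.0541%, and UPRE in 1, against 0.729%. A match is a description of these letters, and a window without one says nothing about elements elsewhere in the gene.

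The 4 CARE matches, on the motif's strand with 8 bases on each side and the matched letters in capitals, were these. HERPUD1 is the ER-arm gene among them.
ASNS chr7:97872469-97872476: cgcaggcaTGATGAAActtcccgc
CHAC1 chr15:40953262-40953269: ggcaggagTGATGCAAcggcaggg
ATF3 chr1:212565216-212565223: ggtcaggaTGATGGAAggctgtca
HERPUD1 chr16:56931966-56931973: gcacgggcTGATGCAAcccgccgc

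The 7 ERSE matches of 6 genes are shown in the same way, with the CCAAT and CCACG parts in capitals. HSP90B1 held 2 of them.
XBP1 chr22:28800603-28800621: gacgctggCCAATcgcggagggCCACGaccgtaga
HSPA5 chr9:125241391-125241409: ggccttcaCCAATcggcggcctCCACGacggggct
HSP90B1 chr12:103930216-103930234: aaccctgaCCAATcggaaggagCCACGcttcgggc
HSP90B1 chr12:103930321-103930339: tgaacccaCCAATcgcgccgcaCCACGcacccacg
CRELD2 chr22:49918554-49918572: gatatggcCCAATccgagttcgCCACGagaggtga
CALR chr19:12938384-12938402: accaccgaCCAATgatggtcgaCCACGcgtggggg
CANX chr5:179698778-179698796: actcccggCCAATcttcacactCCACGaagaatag

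The ERSE-II matches were in HERPUD1, SDF2L1 and HYOU1. HYOU1 held 2 of them, and its UPRE overlaps the one farther from the start, which is listed before the other.
HERPUD1 chr16:56932025-56932035: ggacgccgATTGGGCCACGttgggaga
SDF2L1 chr22:21642114-21642124: gggttttgATTGGTCCACGcttccgag
HYOU1 chr11:119057380-119057390: ggcctgggATTGGACCACGtcacgggg
HYOU1 chr11:119057274-119057284: gcgtactcATTGGACCACGtcccaggc

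Whole windows are printed for a gene of each arm and for the ER-arm gene that holds elements of both kinds, with matches in capitals and each read 5′ to 3′ on the gene's strand. ASNS lies on the minus strand of chr7:97872359-97872658, HSPA5 on the minus strand of chr9:125241294-125241593 and HERPUD1 on the plus strand of chr16:56931892-56932191.
ASNS: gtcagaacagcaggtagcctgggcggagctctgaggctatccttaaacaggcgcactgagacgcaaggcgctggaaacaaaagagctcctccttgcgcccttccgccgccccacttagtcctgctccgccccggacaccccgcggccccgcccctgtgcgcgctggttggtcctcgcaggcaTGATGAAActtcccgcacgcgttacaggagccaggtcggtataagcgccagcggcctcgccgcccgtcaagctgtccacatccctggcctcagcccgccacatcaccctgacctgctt
HSPA5: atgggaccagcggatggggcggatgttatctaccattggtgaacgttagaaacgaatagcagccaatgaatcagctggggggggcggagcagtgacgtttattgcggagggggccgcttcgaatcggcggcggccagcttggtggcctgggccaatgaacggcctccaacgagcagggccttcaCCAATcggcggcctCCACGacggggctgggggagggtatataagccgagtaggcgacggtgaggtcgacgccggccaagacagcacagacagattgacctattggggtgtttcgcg
HERPUD1: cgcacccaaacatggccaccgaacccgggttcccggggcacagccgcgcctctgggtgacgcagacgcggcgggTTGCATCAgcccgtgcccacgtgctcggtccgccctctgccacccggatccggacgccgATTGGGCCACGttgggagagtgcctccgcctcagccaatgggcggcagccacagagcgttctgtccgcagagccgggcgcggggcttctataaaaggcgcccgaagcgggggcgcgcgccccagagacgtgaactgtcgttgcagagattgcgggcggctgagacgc

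Most of the ATF4 arm fell after SAH-BCL9B. None of the 9 measured chaperone genes of the ER arm passed the test, which is near the 6.93% of all genes that did. Of the 18 measured genes of the ATF4 arm, 12 fell, none rose and 6 did not pass an adjusted p of 0.05 (limma with Benjamini-Hochberg adjustment over all 19775 genes), where 3.43% of all genes fell and 6.93% passed in either direction. Of the 20 of the ER arm, 3 fell, none rose and 17 did not pass, where 3.49% of all genes rose. The median log2 change was -0.66 over the ATF4 arm and 0.11 over the ER arm, against 0.02 over all genes. In the ATF4 arm 16 of 18 changes were negative, against 44.9% of all genes. In the ER arm 14 of 20 were positive, against 55.1% of all genes. Among all genes ranked from the most negative change upward, 8 of the ATF4 arm and none of the ER arm stood within the lowest 100. In bulk RNA, a lower level in every cell and a loss of some cells that express a gene cannot be told apart.

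**Figure D1:**
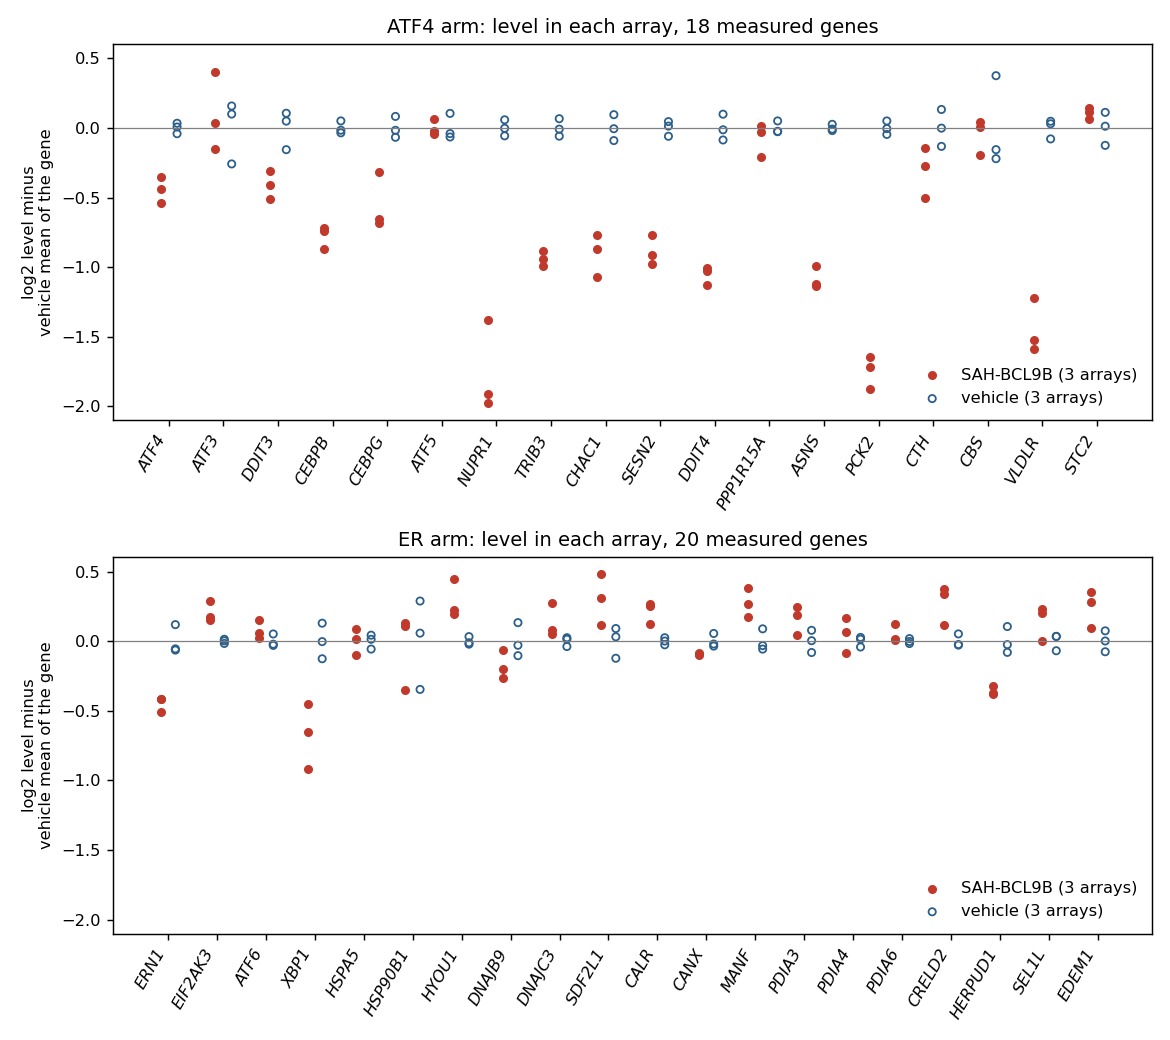
Each point is 1 array, and the vertical axis is the log2 level minus the vehicle mean of that gene, with SAH-BCL9B filled and vehicle open. In the ATF4 arm (top) the SAH-BCL9B points of 13 genes lie wholly below the vehicle points, down to NUPR1 and PCK2, whereas in the ER arm (bottom) this holds for 4 genes and the opposite for 8.

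Per array, the median deviation of the ATF4 arm from the vehicle means was -0.53, -0.78 and -0.70 in SAH-BCL9B 1, 2 and 3, against -0.01, 0.02 and -0.02 in vehicle 1, 2 and 3. For the ER arm it was 0.13, 0.14 and 0.05 in the SAH-BCL9B arrays, against -0.02, 0.02 and 0.002 in the vehicle arrays. The median of all genes was 0.01, 0.08 and -0.02 in the SAH-BCL9B arrays, so SAH-BCL9B 2 lay slightly high over the whole table. The groups did not overlap in 13 ATF4-arm genes, all lower in SAH-BCL9B (12.0% of all genes), and in 12 of the ER arm, 4 of them lower and 8 higher (16.3% of all genes higher, and 28.3% not overlapping in either direction).

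**Figure D2:**
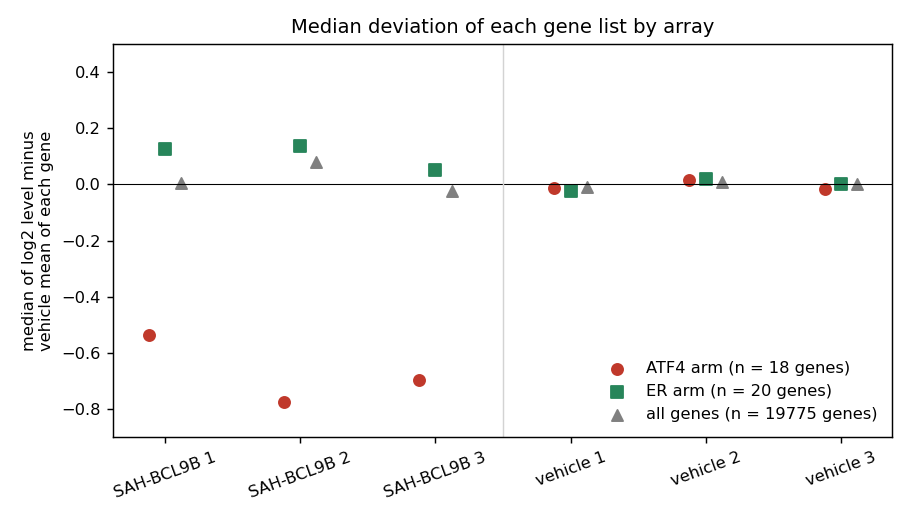
The vertical axis is the median, over the genes of a list, of the log2 level minus each gene's vehicle mean, for each of the 6 arrays. The ATF4 arm (circles) lies between -0.78 and -0.53 in the SAH-BCL9B arrays, apart from the ER arm (squares) and from all genes (triangles), which stay between -0.02 and 0.14.

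After the authors' quantile normalization, which itself makes arrays alike in scale, medians were 6.58 to 6.62 and SDs 2.42 to 2.49. SAH-BCL9B 2 and vehicle 3 had the lowest SDs (2.42 and 2.43), and SAH-BCL9B 2 had the smallest difference between the 3′ and 5′ ACTB control probe sets (0.74, against 1.20 to 1.38 in the other arrays). Without SAH-BCL9B 2 and vehicle 3, 10 genes of the ATF4 arm and 2 of the ER arm fell and none rose. Of all 19775 genes, 690 fell and 504 rose there. All 10 markers of colorectal epithelium examined lay above the median of all probe sets, as did 3 of 11 markers of blood, vessel, stroma, liver and glia. The 2 lists overlapped in level. In SAH-BCL9B the lowest epithelial mean was 6.89 and the highest of the others 8.67, and in vehicle 7.12 and 8.55. None of the 11 markers of other cell types passed the test, and KRT8 did among the epithelial ones, upward (0.50 ± 0.08, SE, limma adjusted p = 0.0113).

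Of the 7 transcription factors and cofactors in the ATF4 arm, 5 fell. ATF4 itself read 14.04, 13.96 and 13.86 in the SAH-BCL9B arrays, against 14.43, 14.40 and 14.36 in the vehicle arrays. The groups did not overlap, and the change was -0.44 ± 0.08 (SE, n = 3 per group, limma adjusted p = 0.0177), which is 1.36-fold lower. It missed the threshold without vehicle 1, vehicle 2 or SAH-BCL9B 3 (limma adjusted p = 0.0938, 0.073 and 0.062). NUPR1, a small stress-induced chromatin cofactor, moved most of the whole arm, with 7.06, 7.66 and 7.13 in the SAH-BCL9B arrays, against 9.10, 9.04 and 8.98 in the vehicle arrays. It was 3.38-fold lower (-1.76 ± 0.15, limma adjusted p = 0.00137), the 9th most negative change of all genes, and SAH-BCL9B 2 stood above the other SAH-BCL9B arrays.

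The C/EBP partners of ATF4 fell with it. CEBPB, which encodes a bZIP factor that dimerises with ATF4 family members, read 12.06, 11.90 and 12.03 in the SAH-BCL9B arrays, against 12.76, 12.83 and 12.74 in the vehicle arrays (-0.78 ± 0.08, limma adjusted p = 0.00268). CEBPG, another such partner, read 10.78, 10.41 and 10.44 in the SAH-BCL9B arrays, against 11.18, 11.03 and 11.08 in the vehicle arrays (-0.55 ± 0.11, limma adjusted p = 0.0256). Its other probe set gave -0.91 ± 0.08 (adjusted p = 0.00326 with every probe set tested). CEBPG missed the threshold in 7 of 16 alternative settings, among them without vehicle 1, 2 or 3 or SAH-BCL9B 3 (adjusted p of 0.0716 to 0.117). DDIT3, which encodes the pro-apoptotic factor CHOP, read 10.62, 10.52 and 10.42 in the SAH-BCL9B arrays, against 10.78, 10.98 and 11.04 in the vehicle arrays. Its change of -0.41 ± 0.10 passed narrowly (limma adjusted p = 0.0475) and missed the threshold in 11 of 16 alternative settings, every single array left out among them (highest adjusted p = 0.152).

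ATF3 and ATF5, both bZIP factors induced downstream of ATF4 in many stresses, did not pass. ATF3 read 11.24, 10.87 and 10.68 in the SAH-BCL9B arrays and 10.58, 10.93 and 10.99 in the vehicle arrays, and the groups overlapped (0.10 ± 0.16, limma adjusted p = 0.826). Its SD was 0.28 in SAH-BCL9B and 0.23 in vehicle. Its 3 probe sets ranged from -0.15 to 0.34. ATF5 read 8.65, 8.76 and 8.67 in the SAH-BCL9B arrays and 8.65, 8.80 and 8.63 in the vehicle arrays, a mean of 8.69 in each group (95% interval of the change -0.19 to 0.19).

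Of the 5 feedback and signalling genes, 4 fell. DDIT4, whose product REDD1 restrains mTOR complex 1, read 12.96, 12.94 and 12.84 in the SAH-BCL9B arrays, against 13.88, 13.95 and 14.07 in the vehicle arrays (-1.05 ± 0.08, limma adjusted p = 0.00103). TRIB3, a pseudokinase that binds ATF4 and CHOP and inhibits them, read 12.14, 12.19 and 12.25 in the SAH-BCL9B arrays, against 13.12, 13.20 and 13.07 in the vehicle arrays (-0.94 ± 0.08, limma adjusted p = 0.00115). In both genes the distance between the groups was several times the spread within them.

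CHAC1, which degrades glutathione and whose window holds the CARE shown above, read 9.95, 9.85 and 9.65 in the SAH-BCL9B arrays, against 10.63, 10.72 and 10.82 in the vehicle arrays (-0.90 ± 0.10, limma adjusted p = 0.00347). SESN2, a leucine-binding inhibitor of mTOR complex 1, read 9.21, 9.07 and 8.999 in the SAH-BCL9B arrays, against 9.92, 10.02 and 9.99 in the vehicle arrays (-0.88 ± 0.08, limma adjusted p = 0.00221). The exception was PPP1R15A, which encodes GADD34, the subunit that directs protein phosphatase to eIF2 and ends the response. It read 9.58, 9.54 and 9.36 in the SAH-BCL9B arrays and 9.54, 9.62 and 9.54 in the vehicle arrays, with overlapping groups (-0.07 ± 0.09, 95% interval -0.27 to 0.13).

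Of the 4 measured metabolic enzymes, 2 fell by more than 2-fold. PCK2, the mitochondrial phosphoenolpyruvate carboxykinase, read 10.07, 10.14 and 9.91 in the SAH-BCL9B arrays, against 11.84, 11.74 and 11.78 in the vehicle arrays. It was 3.35-fold lower (-1.74 ± 0.09, limma adjusted p = 0.000158). ASNS, asparagine synthetase, whose CARE is printed above, read 12.92, 12.77 and 12.79 in the SAH-BCL9B arrays, against 13.90, 13.93 and 13.89 in the vehicle arrays (-1.08 ± 0.08, limma adjusted p = 0.000739).

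The transsulfuration enzymes did not pass. CTH, which cleaves cystathionine to cysteine, read 9.97, 9.74 and 10.10 in the SAH-BCL9B arrays, against 10.37, 10.24 and 10.11 in the vehicle arrays. The groups touched without overlapping, and the change was -0.31 ± 0.12 (limma adjusted p = 0.173). CBS, the enzyme before it, had a change of -0.05 ± 0.16. It lay slightly below the median of all probe sets in both groups, at 6.51 ± 0.13 in SAH-BCL9B and 6.56 ± 0.33 in vehicle (SD, n = 3).

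Of the genes for surface and secreted proteins, VLDLR, a lipoprotein receptor, read 8.23, 7.86 and 7.92 in the SAH-BCL9B arrays, against 9.48, 9.50 and 9.37 in the vehicle arrays. It was 2.72-fold lower (-1.44 ± 0.11, limma adjusted p = 0.000963). STC2, a secreted glycoprotein, lay below the median of all probe sets, at 6.09 ± 0.04 in SAH-BCL9B and 5.98 ± 0.12 in vehicle (SD, n = 3), and did not pass (0.11 ± 0.09, limma adjusted p = 0.554). Across 16 alternative settings, 9 of the 12 genes that fell passed in each, ASNS, CEBPB, CHAC1, DDIT4, NUPR1, PCK2, SESN2, TRIB3 and VLDLR. In all, 5 genes of the ATF4 arm fell by at least 2-fold, NUPR1, PCK2, VLDLR, ASNS and DDIT4, where 0.202% of all genes did. At least 1.5-fold, 9 of the arm fell, against 1.32% of all genes.

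**Figure D3:**
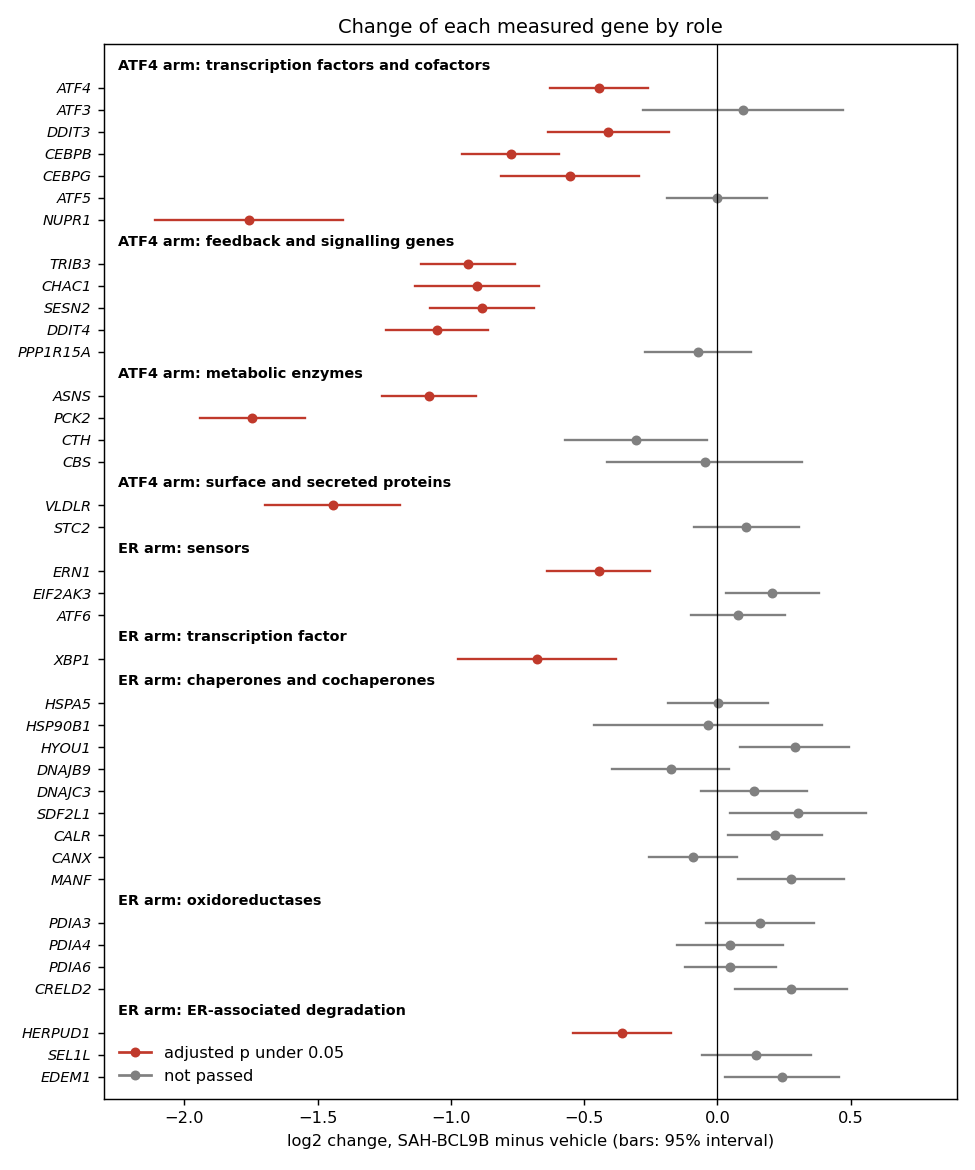
Each point is the log2 change of a measured gene, SAH-BCL9B minus vehicle, with its 95% interval from limma, grouped by role, and red marks an adjusted p under 0.05. The 12 red genes of the ATF4 arm run from -1.76 for NUPR1 to -0.41 for DDIT3, while in the ER arm the red genes are ERN1, XBP1 and HERPUD1 and the chaperones and oxidoreductases lie between -0.18 and 0.30.

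In the ER arm the 3 genes that fell were a sensor, a transcription factor and a degradation factor. ERN1, the gene of the kinase and endoribonuclease IRE1, read 9.36, 9.46 and 9.46 in the SAH-BCL9B arrays, against 9.81, 9.99 and 9.81 in the vehicle arrays (-0.45 ± 0.08, limma adjusted p = 0.0199). XBP1, the factor whose mRNA IRE1 splices, read 11.02, 10.55 and 10.82 in the SAH-BCL9B arrays, against 11.60, 11.47 and 11.34 in the vehicle arrays (-0.68 ± 0.13, limma adjusted p = 0.0207). The probe set gives XBP1 transcript as a whole, and spliced and unspliced forms were not told apart here. HERPUD1, a membrane component of the ER degradation complex, read 12.42, 12.36 and 12.36 in the SAH-BCL9B arrays, against 12.66, 12.84 and 12.71 in the vehicle arrays (-0.36 ± 0.08, limma adjusted p = 0.0374).

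None of these 3 calls held in every setting. Without vehicle 1, vehicle 2 or SAH-BCL9B 3, 0 genes of the ER arm passed, against 316, 518 and 522 of all 19775 genes. Without SAH-BCL9B 1, 1 passed, against 514 of all genes. Without vehicle 3 or SAH-BCL9B 2, 2 passed, against 692 and 1426 of all genes. With the mean of all probe sets, ERN1 changed by -0.20 and XBP1 by -0.39, and ERN1 and HERPUD1 missed the threshold (limma adjusted p = 0.221 for ERN1 and 0.171 for HERPUD1).

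The other sensors did not pass. EIF2AK3, the gene of PERK, read 10.14, 10.00 and 10.02 in the SAH-BCL9B arrays, against 9.83, 9.86 and 9.85 in the vehicle arrays. The groups did not overlap, with a change of 0.21 ± 0.08 (95% interval 0.03 to 0.38, limma adjusted p = 0.16). ATF6 had a change of 0.08 ± 0.08, and all 4 of its probe sets lay between 0.05 and 0.17.

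Of the 9 measured chaperone and cochaperone genes none passed, which is near the 6.93% of all genes that passed in either direction. A positive change was seen in 6 of them, against 55.1% of all genes. HSPA5, which encodes BiP, the Hsp70 of the ER lumen and the usual readout of the unfolded protein response, read 14.06, 13.87 and 13.98 in the SAH-BCL9B arrays and 13.98, 14.01 and 13.91 in the vehicle arrays. Its mean was 13.97 in each group, and the 95% interval of the change ran from -0.19 to 0.19. HSP90B1, the ER Hsp90 GRP94, read 12.64, 12.16 and 12.62 in the SAH-BCL9B arrays and 12.80, 12.16 and 12.57 in the vehicle arrays. Its low array in each group carried the number 2, and with SDs of 0.27 and 0.32 its interval was the widest of the ER arm, -0.46 to 0.39.

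SDF2L1, a cofactor of BiP, read 10.23, 10.59 and 10.42 in the SAH-BCL9B arrays, against 10.14, 10.20 and 9.98 in the vehicle arrays (0.30 ± 0.11, limma adjusted p = 0.157). HYOU1, a nucleotide exchange factor of BiP, read 11.52, 11.73 and 11.48 in the SAH-BCL9B arrays, against 11.27, 11.32 and 11.28 in the vehicle arrays (0.29 ± 0.09, limma adjusted p = 0.102). MANF, a secreted ER stress protein, had a value of 0.28 ± 0.09 (limma adjusted p = 0.108). The groups of these 3 genes did not overlap, and HYOU1 and MANF passed upward when low-level genes were filtered out, or when the fit used a mean-variance trend with robust shrinkage (limma adjusted p of 0.024 to 0.0474).

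The lectin chaperones CALR and CANX, which hold glycoproteins for folding, had small changes in opposite directions. CALR read 11.92, 11.94 and 11.80 in the SAH-BCL9B arrays, against 11.65, 11.67 and 11.70 in the vehicle arrays (0.22 ± 0.08, limma adjusted p = 0.147). CANX read 13.72, 13.73 and 13.73 in the SAH-BCL9B arrays, against 13.78, 13.88 and 13.80 in the vehicle arrays (-0.09 ± 0.07, limma adjusted p = 0.539). The cochaperones DNAJB9, which binds IRE1, and DNAJC3, which assists BiP, had values of -0.18 ± 0.09 and 0.14 ± 0.09.

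The 4 oxidoreductase-type genes, whose products form or rearrange disulfide bonds, all had positive values, against 55.1% of all genes. None of them passed, again near the 6.93% of all genes. CRELD2 was highest, with 12.28, 12.31 and 12.05 in the SAH-BCL9B arrays, against 11.91, 11.91 and 11.99 in the vehicle arrays (0.28 ± 0.09, limma adjusted p = 0.122). It passed with the mean-variance trend (adjusted p = 0.0264). PDIA3 had a value of 0.16 ± 0.09, and PDIA4 and PDIA6 had 0.05 ± 0.09 and 0.05 ± 0.07. In degradation, SEL1L, the scaffold of the ligase complex, had a value of 0.15 ± 0.09, and EDEM1, which trims mannose from misfolded glycoproteins, 0.24 ± 0.09 (limma adjusted p = 0.179).

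For the genes that did not pass, the 95% intervals bound the change of the chosen probe set, not of every probe set of the gene. Another probe set of CALR, for example, gave 0.73 ± 0.13. All 17 in the ER arm and all 6 in the ATF4 arm had intervals that left out a 1.5-fold fall and a 1.5-fold rise, at limma's unadjusted 95% level. Of those 6, STC2 and CBS lay below the median of all probe sets. Signal over background is unknown there, so their intervals bound the array value only. The lowest bound among the 17 was -0.46 and the highest 0.56, so smaller changes remain possible. At an unadjusted limma p of 0.05, 7 of 20 genes of the ER arm were higher and 3 lower, and 13 of 18 of the ATF4 arm were lower and 0 higher. At that threshold 12.2% of all genes were higher and 9.22% lower.

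Changes in the ER arm were also set beside the promoter elements. The 9 genes with ERSE or ERSE-II in their window had a median change of 0.001, from -0.68 for XBP1 to 0.30 for SDF2L1, with 2 lower. The 10 measured genes with a window and neither element had a median of 0.11, from -0.45 to 0.28, with 1 lower. HERPUD1, the ER-arm gene with a CARE, was among those that fell. In the ATF4 arm, of the genes with a CARE, ASNS and CHAC1 fell and ATF3 did not pass. These counts are descriptions and were not tested.

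Probe sets of 1 gene mostly moved together in the ATF4 arm where the gene fell. The 18 measured genes had 32 single-gene probe sets, 24 of them with a negative change, and 7 probe sets of 5 genes went against the chosen one. Those 5 were ATF3, ATF5, CBS, PPP1R15A and STC2, none of which passed. Both probe sets of ASNS (-1.08 and -0.74), TRIB3 (-0.94 and -0.83) and SESN2 (-0.88 and -1.22) were negative. The second sets of ASNS (SE 0.21) and SESN2 (SE 0.28) did not pass with every probe set tested by itself (limma adjusted p = 0.112 and 0.0629). ATF4, DDIT3, CHAC1, DDIT4, NUPR1, PCK2, VLDLR and CEBPB had only 1 single-gene probe set each, so such a comparison was not possible for them. In the ER arm, 5 of 50 probe sets, in HSPA5, DNAJB9, PDIA6 and CANX, went against the chosen one.

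**Figure D4:**
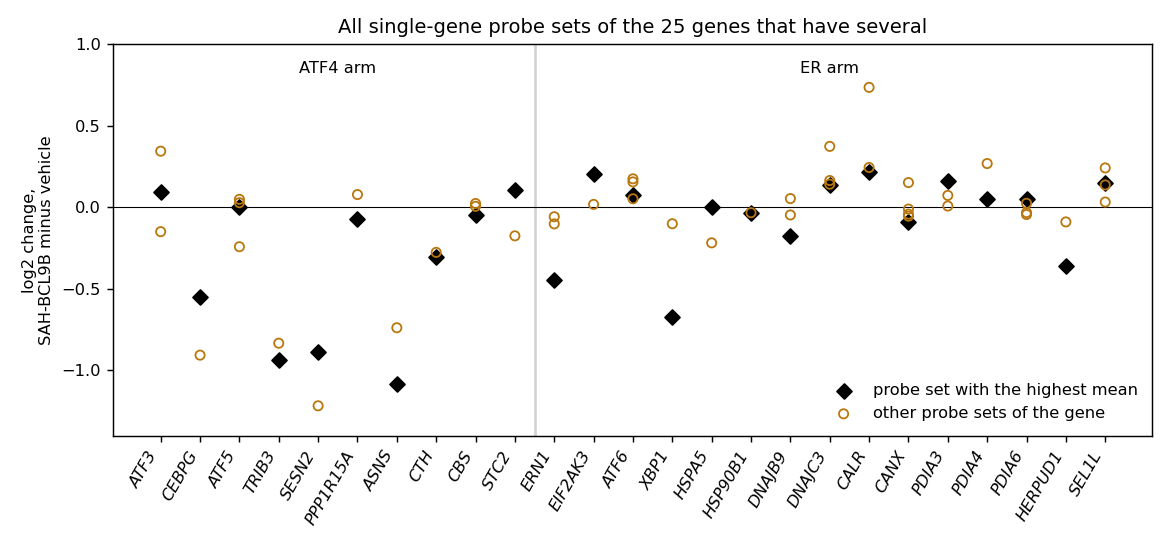
The vertical axis is the log2 change, SAH-BCL9B minus vehicle, of every single-gene probe set of the 25 measured genes that have several, with the chosen probe set as a filled diamond. The fallen genes CEBPG, TRIB3, SESN2 and ASNS lie below 0 in each probe set, and 1 probe set of CALR stands at 0.73, above its other 2.

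CALR differed between its probe sets. The chosen set and another, both of the _x_at kind, gave 0.22 ± 0.08 and 0.24 ± 0.09, and the remaining one, of the plain _at kind, gave 0.73 ± 0.13 (mean 8.33 in SAH-BCL9B and 7.60 in vehicle), which passed when every probe set was tested by itself (limma adjusted p = 0.0308). Averaging the 3 probe sets gave CALR 0.40 (limma adjusted p = 0.0256), and the chosen set passed with the mean-variance trend (adjusted p = 0.0407). In Affymetrix names, _x_at marks probe sets with probes that can match other transcripts. The chosen sets of HSP90B1 and PDIA6 carry that mark too. XBP1 rests on 1 probe set, since its other lay at 5.70 in SAH-BCL9B and 5.80 in vehicle, below the array median, and changed by -0.10. ERN1 and HERPUD1 also rest on 1 probe set each. Other probe sets of ERN1 changed by -0.10 ± 0.09 (mean 8.20 in SAH-BCL9B and 8.31 in vehicle) and -0.06 ± 0.13. The other of HERPUD1 changed by -0.09 ± 0.09 (mean 8.01 in SAH-BCL9B and 8.10 in vehicle).

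Genes upstream and downstream of both arms, from related lists, are given for comparison. These lists too were chosen with earlier results of these data known. Of 17 measured genes for eIF2 kinases, eIF2, its exchange factor eIF2B and its phosphatase, 1 fell (5.88%, against 3.43% of all genes) and none rose, with a median of 0.07. A single call among 17 is near that background. On the eIF2 list, the gene that fell was EIF2S2, the beta subunit of eIF2, with 13.77, 13.76 and 13.65 in the SAH-BCL9B arrays, against 14.12, 14.12 and 14.13 in the vehicle arrays (-0.40 ± 0.07, limma adjusted p = 0.0197). It missed the threshold in 6 of 16 alternative settings, among them without vehicle 1, 2 or 3, SAH-BCL9B 1 or SAH-BCL9B 3 (adjusted p of 0.0586 to 0.0973).

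Of 33 other measured targets of ATF4 or CHOP, 21 fell (63.6%, against 3.43% of all genes), 2 rose (6.06%, against 3.49%) and 10 did not pass, with a median of -0.44. JDP2, a bZIP repressor, fell most, with 8.93, 8.77 and 8.86 in the SAH-BCL9B arrays, against 10.18, 10.03 and 10.20 in the vehicle arrays (-1.29 ± 0.09, limma adjusted p = 0.000574). PHGDH, the entry enzyme of serine synthesis, VEGFA, an angiogenic growth factor, and AARS1, alanyl-tRNA synthetase, followed with -1.12, -1.06 and -0.97. The 2 that rose, a share near that of all genes, were LAMP3, a lysosomal membrane protein gene (0.72 ± 0.13, limma adjusted p = 0.0199), and ERO1A, which oxidises protein disulfide isomerase (0.50 ± 0.08, adjusted p = 0.0124). Of these targets, 11 fell without vehicle 1, where 209 of all 19775 genes fell. Without SAH-BCL9B 1 or SAH-BCL9B 3, 12 fell, against 327 and 277 of all genes. Without vehicle 2 or vehicle 3, 13 fell, against 259 and 429. Without SAH-BCL9B 2, 20 fell, against 727.

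Of 39 other measured genes of ER folding, degradation and translocation, 5 rose (12.8%, against 3.49% of all genes), 1 fell (2.56%, against 3.43%) and 33 did not pass, with a median of 0.19. SELENOS, a selenoprotein of the degradation complex, rose by 0.55 ± 0.08 (limma adjusted p = 0.0105), with 12.20, 12.33 and 12.13 in the SAH-BCL9B arrays, against 11.61, 11.67 and 11.73 in the vehicle arrays. CREB3, a membrane-bound factor related to ATF6, rose by 0.45 ± 0.10, and DERL2 and DERL1, channel proteins of degradation, by 0.39 ± 0.08 and 0.36 ± 0.07. ERP44, a thioredoxin-family retention factor, rose by 0.32 ± 0.07 (adjusted p = 0.0425). DERL1 and ERP44 are named because the count is small, after their values were seen. HSPA13, a microsomal Hsp70-like gene, fell by 0.71 on the log2 scale (adjusted p = 0.0159). Of the 39, none passed without vehicle 1, where 316 of all 19775 genes did. Without vehicle 2 or SAH-BCL9B 3, 1 passed, against 518 and 522 of all genes. Without vehicle 3 or SAH-BCL9B 1, 2 passed, against 692 and 514. Without SAH-BCL9B 2, 7 passed, against 1426. Averaging its probe sets gave DERL2 a change of 0.02.

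**Figure D5:**
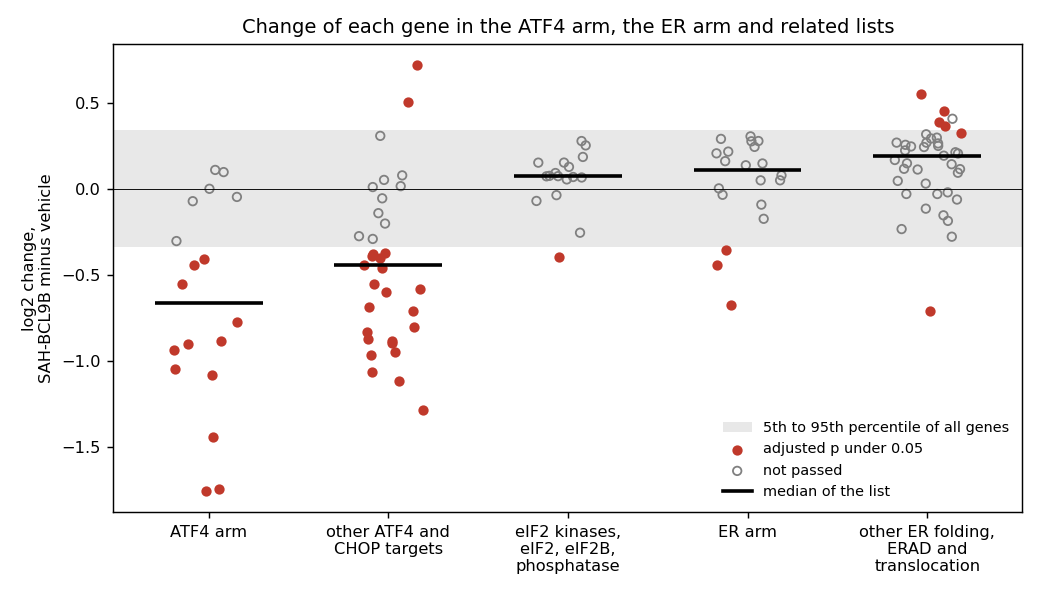
Each point is the log2 change of 1 gene, SAH-BCL9B minus vehicle, in the ATF4 arm, the ER arm and the related lists, filled where the adjusted p was under 0.05, with the median of each list as a bar. The grey band holds the 5th to 95th percentile of all genes (-0.34 to 0.34), below which lie most of the ATF4 arm and of the other ATF4 and CHOP targets.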

How the data were processed

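RNA from 3 SAH-BCL9B and 3 vehicle cultures was hybridised to 1-colour arrays. The authors deposited log2 values per probe set, made with RMA (background correction, quantile normalization and summary) in affy, per the submitters' processing notes. Versions were not given in the sources used here, and scanner files were not analysed here. Quantile normalization sets all arrays to 1 distribution, so a change common to most genes would not be seen. The values carry no detection call, so signal over background is unknown, and the number of arrays limits the precision.

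Of 54675 probe sets, 62 were controls, 41091 named 1 gene, 1801 several and 11721 none in the platform annotation, which can be old. For each of 19775 genes the probe set with the highest mean was used. Groups were compared with limma 3.58.1 (lmFit and eBayes, R 4.3.3), with no covariate and with Benjamini-Hochberg adjustment over all genes, and a gene passed at an adjusted p under 0.05. SE and 95% intervals come from the same fit. The code was checked on simulated data.

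The members and gene lists were chosen with earlier results of these data known. All members are named. From each related list the text names at most 4 genes, those that passed with the largest change, and others only beside a count of 5 or fewer. Replicate numbers come from the sample titles, which tie no cultures together. Deviations of same-numbered arrays correlated at 0.24, -0.20 and -0.32, so the numbers were not taken as pairs. The highest correlation across the groups was 0.42, between SAH-BCL9B 2 and vehicle 3. The promoter search used the RefSeq table for GRCh38.p14. Protein sequences were not analysed here. The alternatives were a replicate block, other normalizations and fits, other choices of probe set, a filter on low values, and arrays left out.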

Additional observations from a re-analysis of the deposited data

How the results depend on the processing

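The ATF4 arm kept 9 to 12 genes past the threshold, all lower, in the 16 alternatives, and leaving out 1 array in turn gave 9 to 11. For the ER arm the same gave 0 to 2, for the eIF2 list 0 to 1, for the other ATF4 and CHOP targets 11 to 22, for the other ER genes 0 to 7 and for all genes 316 to 1426, against 1370 with every array. The arm medians stayed between -0.737 and -0.608 (ATF4 arm) and between 0.0771 and 0.129 (ER arm). Each of these runs had 1 array fewer, and leaving out SAH-BCL9B 2 gave the 1426 genes and leaving out vehicle 1 the 316. The cause of the differing counts was not tested.

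With the replicate number as a block, 296 genes passed in all, 9 in the ATF4 arm, 0 in the ER arm, 0 on the eIF2 list, 12 of the other ATF4 and CHOP targets and 0 of the other ER genes. The numbers were not taken as pairs, and a lost call there is not a weaker effect. The filter on low values passed 2270 of the 12258 genes it kept. The ER arm gave 5 of 20 (3 lower, 2 higher), the eIF2 list 3 of 17 and the other ER genes 11 of 38. STC2 and CBS were filtered out, and the 16 ATF4-arm genes left had a median of -0.83. A variance trend with a robust fit passed 2456 of 19775 genes. Of the ER arm 7 passed (3 lower, 4 higher), of the eIF2 list 4 and of the other ER genes 14. Array weights passed 2172 genes and a second quantile normalization 1612, and each gave 2 on the eIF2 list. The mean of all probe sets gave 3 of the other ER genes and an ATF4-arm median of -0.753, and testing every probe set by itself also gave 3. Without vehicle 3 and SAH-BCL9B 2 the ER-arm median was 0.142.

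Signs turned in genes that passed in neither setting. The mean of all probe sets gave -0.0335 for STC2, 0.00211 for PPP1R15A, -0.109 for HSPA5 and -0.00143 for PDIA6. Median centring gave 0.00158 for ATF5, and quantile normalization -0.00251 for HSPA5. Array weights gave 0.0162 for CBS and 0.0177 for HSP90B1, and the ACTB covariate 0.148 for HSP90B1 and -0.0261 for PDIA4. Without vehicle 3 and SAH-BCL9B 2, CBS changed by 0.111, HSP90B1 by 0.149 and PDIA4 by -0.00221. Leaving out 1 array in turn, the changes ran from -0.0572 to 0.221 for ATF3, -0.159 to 0.139 for CBS, -0.034 to 0.0512 for ATF5, -0.0421 to 0.0505 for HSPA5, -0.209 to 0.12 for HSP90B1 and -0.00936 to 0.113 for PDIA4.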
